A study of Mus musculus with 8 samples.

Results

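The 6 genes described here encode proteins that take up, carry and sense bile acids at the distal end of the small intestine: Fabp6, Slc10a2, Fgf15, Nr1h4, Nr0b2 and Gpbar1. They were chosen by name, as every non-control probe whose gene name in the array files equalled one of the 6. Each gene had 1 probe on 1 spot, so 6 probes stand for 6 genes among 55681 distinct probes and 25330 genes tested. The genes were proposed with results of this comparison known, so their differences between groups are given as a description, with no p-value for any of them. For the members, p-values of the fit over all genes enter only as counts under a threshold, and nothing is read from those counts.

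Bile acids are made from cholesterol in the liver, released into the gut with meals and recovered by enterocytes of the ileum. Slc10a2 is the apical sodium-coupled carrier that brings them in, Fabp6 is the cytosolic protein that binds them, and the Slc51a and Slc51b subunits form the basolateral exporter. Inside the cell they activate the nuclear receptor FXR (Nr1h4), which is known to induce Fabp6, Slc51a, Slc51b, Fgf15 and the corepressor gene Nr0b2. FGF15 is a hormone that travels to the liver and lowers bile acid synthesis, and Gpbar1 (TGR5) is a membrane receptor for bile acids found on endocrine and other cells.

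Fetal mouse small intestine, taken at E18.5, was profiled as RNA on 8 single-colour arrays, 4 control and 4 mutant. The mutants were Rfx6 fl/fl with Ngn3-cre, that is, with both Rfx6 alleles flanked by recombination sites and Cre driven by a gene of endocrine progenitors. Rfx6 is a transcription factor of endocrine cells. The descriptions of mutant replicates 2, 3 and 4 name Rfx7, Rfx8 and Rfx9 in its place, which was read as an entry error because their titles and source names give Rfx6. Control replicates 1, 3 and 4 were Rfx6 fl/+, control replicate 2 was Rfx6 fl/fl, and no control is labelled as carrying Cre, so Cre and the loss of Rfx6 cannot be told apart. The labels number the samples but do not say whether they came from a shared litter. The p-values given for other genes therefore measure the spread between these samples only.

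On the 8 arrays, the 75th percentile of processed intensity over non-control spots ranged from 788.0 to 1027. Between 60.9% and 70.7% of those spots were well above background. Levels are given as log2 of the processed intensity over that percentile of the same array, so 0 stands for the 75th percentile. Mutant replicate 1 stood apart, at a mean correlation across genes of 0.978, while the remaining arrays had 0.990 to 0.991. The Rfx6 probe did not check the labels: its level was -3.48 to -2.93 in controls, -3.37 to -3.02 in mutant replicates 2, 3 and 4, and -5.52 in mutant replicate 1, where it was not well above background. Hormone genes did follow the labels. Of 8 endocrine markers, 7 were lower in the mutants at a limma adjusted p under 0.05, namely Gip, Gcg, Cck, Pyy, Nts, Sst and Ghrl. The remaining marker, Chga, had overlapping groups and a difference of -0.27 (SE 0.14, limma adjusted p = 0.821). All 10 enterocyte markers and all 4 distal markers (Cubn, Amn, Slc51a and Slc51b) passed the filter on dim probes, as did the 6 members, which were well above background on all 8 arrays. In RNA from whole intestine, fewer cells of a type and less RNA per cell cannot be told apart.

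The probe of Fabp6 is shown because one of the 2 large differences among the members rests on it. It lies on chr11:43410973-43411032 (mm9, minus strand). The probes of Nr0b2 (chr4:133109694-133109753, plus strand) and Gpbar1 (chr1:74326104-74326163, plus strand) are shown beside it as a corepressor and a receptor whose groups overlapped. The sequences are those of the array files, 5′ to 3′, 60 bases each.
Fabp6 probe: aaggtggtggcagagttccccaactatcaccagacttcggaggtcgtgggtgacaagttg
Nr0b2 probe: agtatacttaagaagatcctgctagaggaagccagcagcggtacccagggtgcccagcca
Gpbar1 probe: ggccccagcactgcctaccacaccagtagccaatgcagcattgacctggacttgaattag
All 3 have a GC content of 55.0%. The probes of Slc10a2 (chr8:5086145-5086204), Fgf15 (chr7:152086371-152086430) and Nr1h4 (chr10:88917222-88917281) are located on the same build. Which exon or UTR each probe lies in was not analysed here.

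FXR, with its partner RXR, binds an inverted repeat (IR-1) in which the half-site AGGTCA is followed by any 1 base and then by its reverse complement TGACCT, and Fabp6 is a textbook target. The 250 bases before the Fabp6 start site in the RefSeq table (GRCm38.p6, chr11:43601563-43601812, minus strand) are therefore shown, with capitals marking each 13-base window that differs from IR-1 at no more than 2 bases.
Fabp6 upstream: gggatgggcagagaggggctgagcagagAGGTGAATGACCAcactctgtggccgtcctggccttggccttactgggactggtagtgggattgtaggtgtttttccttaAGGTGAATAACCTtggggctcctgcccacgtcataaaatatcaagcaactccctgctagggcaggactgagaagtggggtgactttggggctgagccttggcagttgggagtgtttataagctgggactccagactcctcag
The window that starts 142 bases before the start site reads AGGTGAATAACCT and the one that starts 222 bases before it reads AGGTGAATGACCA. The motif is its own reverse complement, so both strands were searched at once. A window this close was present in 0.959% of 32851 promoters of the same length, and at least 2 such windows in 0.0122%, or 4 promoters. Of the 5 members listed in the table, Slc10a2, Nr1h4, Nr0b2 and Gpbar1 had none, and Slc51a and Slc51b had none. Fgf15 had no entry there, so its promoter was not searched. Abcb11, which encodes the canalicular bile salt pump, had 2. These are matches of letters within 250 bases and say nothing of binding.

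The carrier genes differed from each other. Fabp6 was at 2.30, 4.10, 3.43 and 4.50 in control replicates 1 to 4 and at 6.48, 6.10, 5.81 and 5.25 in mutant replicates 1 to 4. Every mutant array lay above every control, with a gap of 0.74 between the highest control and the lowest mutant. The group means were 3.58 ± 0.96 and 5.91 ± 0.52 (SD, n = 4 each), a difference of 2.33 (SE 0.46) on the log2 scale, or 5.01-fold. Processed intensity ranged from 4760 to 70310 over the 8 arrays, far above background. Controls spread over 2.21 log2 units and mutants over 1.23, so Fabp6 also differed widely among samples of the same group. Control replicate 1 was the lowest of the 8 arrays, and without it the difference was 1.90 (SE 0.34).

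Slc10a2, the uptake carrier, had overlapping groups. On the log2 scale it stood at -3.42, -3.43, -4.15 and -3.41 in control replicates 1 to 4 and -5.47, -3.47, -3.59 and -3.18 in mutant replicates 1 to 4. Mutant replicate 1 was the lowest array and mutant replicate 4 the highest. The means were -3.60 ± 0.37 and -3.93 ± 1.04 (SD, n = 4 each), a difference of -0.32 (SE 0.47), which became 0.19 (SE 0.21) without mutant replicate 1. Its intensity of 17.8 to 113.5 made it the dimmest of the 6 probes. A further probe named 9130221J18Rik in the array files, which the gene table lists as an older name of Slc10a2, lies nearby (chr8:5083366-5083425) and gave a similar picture. That probe stood at -5.82 on mutant replicate 1, at -4.04 to -2.97 on the other mutants and at -4.21 to -3.44 in controls.

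Fgf15, the hormone that reports ileal bile acids to the liver, had the largest difference of the 6. It stood at -0.83, -0.03, -3.61 and -0.61 in control replicates 1 to 4 and at 2.87, 1.67, 1.42 and 1.21 in mutant replicates 1 to 4. All 4 mutant arrays lay above all controls, with a gap of 1.24, and control replicate 3 was far below the other controls. The means were -1.27 ± 1.60 and 1.79 ± 0.74 (SD, n = 4 each), a difference of 3.06 (SE 0.74), or 8.36-fold. Without control replicate 3 the difference was 2.28 (SE 0.40). Ordered from the highest, the Fgf15 difference ranked 9 and that of Fabp6 ranked 15 among 25330 genes. The 4 mutant arrays stood in the same order for both genes, with mutant replicate 1 highest and mutant replicate 4 lowest, whereas the controls did not: the lowest control was replicate 1 for Fabp6 and replicate 3 for Fgf15.

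**Figure D1:**
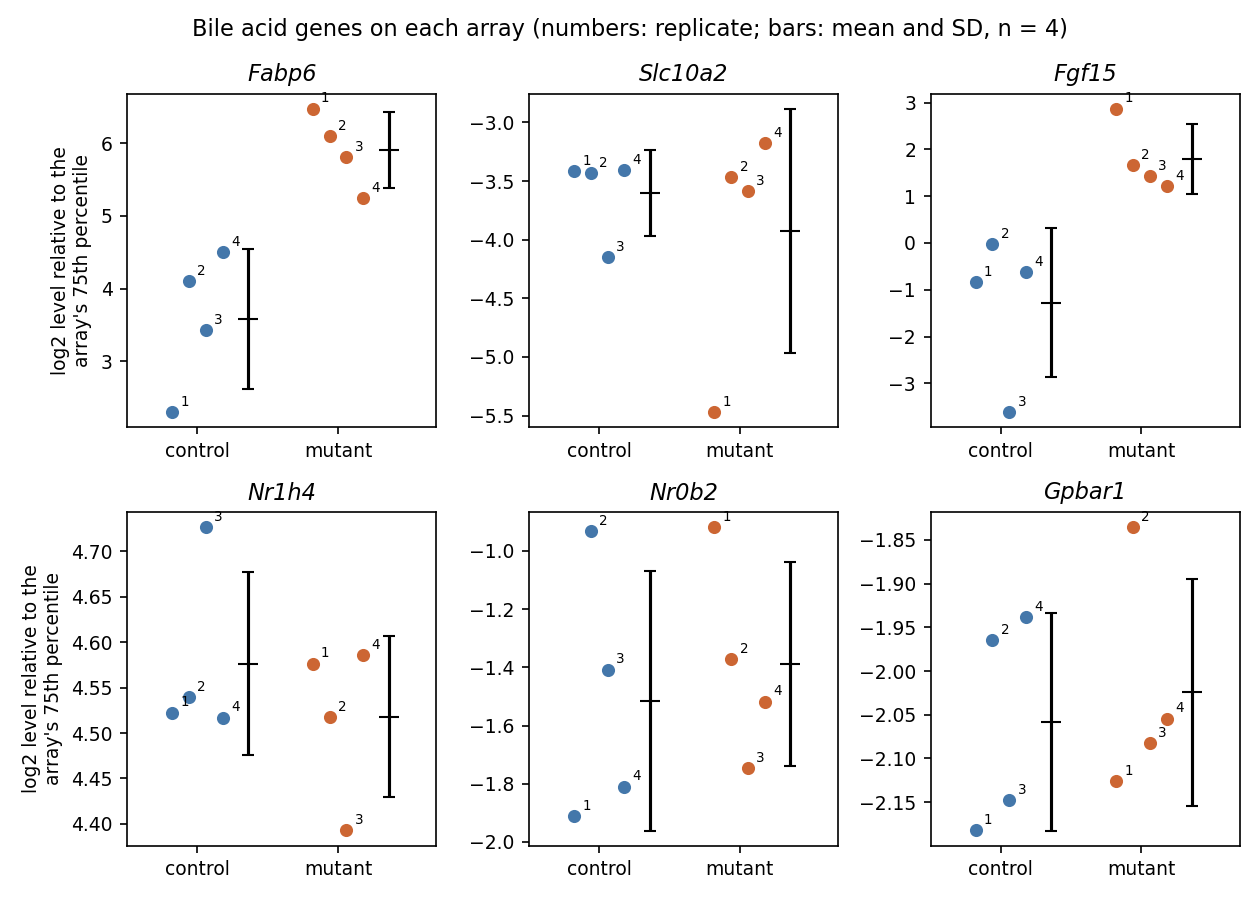
Log2 level of each of the 6 genes on each array, relative to the array's 75th percentile, with points for the 4 control and 4 mutant arrays, replicate numbers beside them and bars for mean and SD; each panel has its own vertical scale. Mutant arrays lie above all controls for Fabp6 (5.25 or more against 4.50 or less) and Fgf15 (1.21 or more against -0.03 or less), and the groups overlap in the other 4 panels.

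The receptor and corepressor genes showed no such separation. Nr1h4, which encodes FXR itself, was at 4.52, 4.54, 4.73 and 4.52 in control replicates 1 to 4 and at 4.58, 4.52, 4.39 and 4.59 in mutant replicates 1 to 4. Both groups kept within 0.21 log2 units, the narrowest spread of the 6 genes. The means were 4.58 ± 0.10 and 4.52 ± 0.09 (SD, n = 4 each), a difference of -0.06 (SE 0.09).

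Nr0b2, the FXR-induced corepressor SHP, was at -1.91, -0.93, -1.41 and -1.81 in control replicates 1 to 4 and at -0.92, -1.37, -1.75 and -1.52 in mutant replicates 1 to 4. The highest control and the highest mutant were nearly level. The means were -1.52 ± 0.45 and -1.39 ± 0.35 (SD, n = 4 each), a difference of 0.13 (SE 0.25). Among the members known as FXR targets, Nr0b2 thus had overlapping groups while Fabp6 and Fgf15 did not. The targets Slc51a (0.20) and Slc51b (0.37), which are not members, also had overlapping groups.

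Gpbar1 was at -2.18, -1.96, -2.15 and -1.94 in control replicates 1 to 4 and at -2.13, -1.84, -2.08 and -2.05 in mutant replicates 1 to 4. The groups overlapped over most of their range. The means were -2.06 ± 0.12 and -2.02 ± 0.13 (SD, n = 4 each), a difference of 0.03 (SE 0.10). The 7 hormone genes called on the same arrays had differences of -1.58 (Pyy) or below.

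Over all genes, limma called 0 of the 6 members at an adjusted p under 0.05, against 0.0592% of all genes in either direction and 0.00395% in the higher direction. At an unadjusted p under 0.05 there were 2 members (5.34% of all genes). That count cannot test the members, because they were proposed with results of this contrast known. The groups of Fabp6 and Fgf15 did not overlap, with the mutants above (4.67% of all genes did not overlap, 3.04% with the mutants above). Both were at least 2-fold higher in the mutants, as were 0.284% of all genes (0.707% in either direction). The median difference of the 6 members was 0.08, against 0.03 over all genes. These counts come from the contrast in which the genes were proposed and nothing is read from them.

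**Figure D2:**
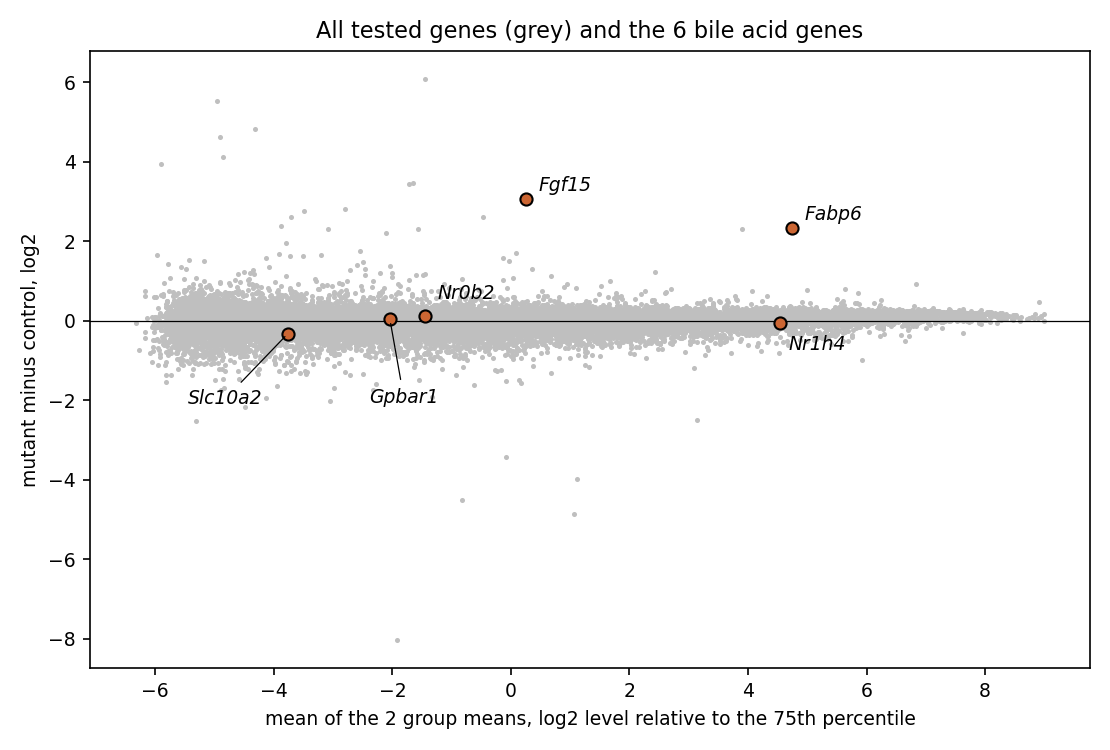
Mutant minus control difference (log2) against the mean of both group means (log2 level relative to the 75th percentile) for the 25330 genes tested, in grey, with the 6 bile acid genes in orange. Fgf15 (3.06) and Fabp6 (2.33) lie well above the band of most genes, and the other 4 lie within it at -0.32 to 0.13.

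The 2 slide rows held 2 controls and 2 mutants each. For the separated genes Fabp6 and Fgf15, the direction within each row was fixed by the separation, so only the sizes differ. Fabp6 was higher in the mutants by 3.09 within row 1 and by 1.56 within row 2, and Fgf15 by 2.70 and 3.43. Slc10a2 changed sign between rows, at -1.04 and 0.40, with mutant replicate 1 in the first. Within-row differences were 0.02 and -0.13 for Nr1h4, 0.28 and -0.02 for Nr0b2, and 0.09 and -0.03 for Gpbar1.

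Around the 6 members, 28 other genes of bile acid transport, regulation, FGF15 reception and synthesis were listed, and 22 were tested. In limma 0 of the 22 passed an adjusted p of 0.05, against 0.0592% of all genes. At an unadjusted p under 0.05 there were 4, Slc51b, Nr1i3, Fgfr4 and Cyp27a1, against 5.34% of all genes. By sign, 19 were higher and 3 lower in the mutants, against 57.2% higher over all genes, with a median of 0.15. The 19 include Slc10a1, at 0.07 on a probe shared with other genes. Mutant replicate 1 was the highest of the 8 arrays for 16 of the 22 (72.7%; 45.6% of all genes). Without it, 15 were higher and 7 lower and the median was 0.05, against 12797 of all 25330 genes higher and a median of 0.002. The probes of Slco1a5, Slco1b2, Cyp7a1, Cyp8b1 and Baat were not well above background on any array. Malrd1 was not matched to a probe.

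Among transporters, the basolateral exporter subunits were the closest to Fabp6 in function and far from it in size. Slc51b was at 2.77 ± 0.14 in controls and 3.15 ± 0.30 in mutants (SD, n = 4 each), 0.37 apart (SE 0.15, limma adjusted p = 0.821). Slc51a was at 6.66 ± 0.08 and 6.86 ± 0.25, a difference of 0.20 (SE 0.13, limma adjusted p = 0.821), and its second probe gave 0.24. Differences were 0.02 for Abcc2 and 0.14 for Abcc3, which encode organic anion export pumps, 0.30 for Abcc4 and 0.16 for Abcb11. Slc10a1, the liver uptake carrier, could not be read: 1 of its probes was not well above background on any array, and the bright one is annotated to transcripts of 3 further genes (4930402H24Rik, Med16 and Spc24).

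Among regulators, 8 of the 9 tested were higher by sign and 1 had groups that did not overlap. Nr1i3, the xenobiotic receptor CAR, was at 1.53, 1.48, 1.71 and 1.48 in control replicates 1 to 4 and at 2.21, 1.86, 2.19 and 1.83 in mutant replicates 1 to 4. Its difference was 0.47 (SE 0.12, limma adjusted p = 0.588), and its dimmer probe gave 0.39. The differences of Vdr (0.24), which encodes the vitamin D receptor, Rxra (0.21), the partner of FXR, Nr1i2 (0.16) and Gata4 (0.16) were smaller, with overlapping groups. Hnf4a (0.02), Nr1h3 (0.05) and Nr5a2 (-0.03) lay closer to 0.

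On the receiving side of FGF15, Fgfr4, its receptor, was at 0.91 to 1.12 in controls and 1.21 to 1.47 in mutants. The groups did not overlap, and the difference was 0.32 (SE 0.09, limma adjusted p = 0.775), with 0.33 at its dimmer probe. Klb, the coreceptor β-Klotho, had a difference of -0.001 (SE 0.10). Among synthesis genes, Cyp27a1, a sterol hydroxylase, was at -3.75 ± 0.14 and -3.29 ± 0.09 (SD, n = 4 each), 0.46 apart (SE 0.10, limma adjusted p = 0.417), with no overlap. The differences were -0.42 (SE 0.21) for Slc27a5, which encodes a bile acid ligase, 0.09 for Acot8 and 0.004 for Cyp7b1. The groups did not overlap for 3 of these 22 genes, against 4.67% of all genes.

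**Figure D3:**
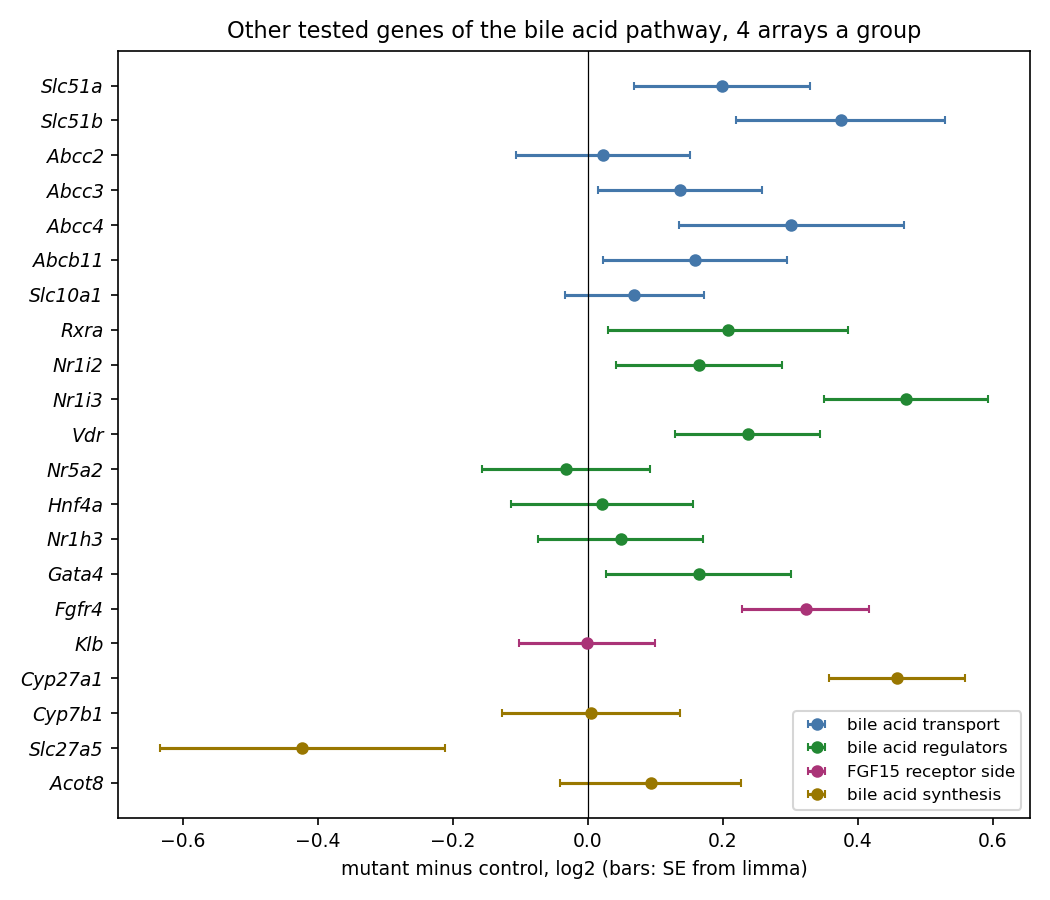
Mutant minus control difference (log2) with its limma SE for 21 of the 22 tested genes of bile acid transport, regulation, FGF15 reception and synthesis, 4 arrays a group; Slc10a1 is drawn at the bright probe shared with other genes. All points lie between -0.42 and 0.47, and none passed an adjusted p of 0.05.

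Regional and cell type markers were set beside the separated genes. The 7 proximal markers had a median difference of -0.01 and the 4 distal ones 0.17, with 0 of either called in limma. At an unadjusted p under 0.05 in limma there was 1 of the 11, Slc51b (5.34% of all genes). Summed over the list in multiples of the 75th percentile, proximal markers were at 637.2 to 697.6 in controls and 613.8 to 773.3 in mutants. Distal markers were at 206.9 to 222.5 and 204.5 to 298.5, the highest being mutant replicate 1. Fabp1, a proximal marker that encodes a fatty acid binding protein related to Fabp6, was at 8.44 ± 0.06 in controls and 8.48 ± 0.16 in mutants (SD, n = 4 each). The difference was 0.04 (SE 0.10, limma adjusted p = 0.915). Without mutant replicate 1, the highest of the 8 arrays for all 4 distal markers, the medians were -0.05 for the proximal and 0.05 for the distal list. The 10 enterocyte markers had a median of -0.01 and summed to 450.3 to 500.7 in controls and 436.2 to 636.0 in mutants. Controls and mutants overlapped in each of these sums, which rest mostly on the brightest genes of a list. The distal list shares Slc51a and Slc51b with the pathway genes. The part of region and enterocytes in the result was not tested.

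Of 6 pancreatic acinar markers, 4 were tested and all 4 were higher in the mutants by sign. The groups were separate for 2 (Amy2a5 and Cela2a, against 4.67% of all genes) and overlapped for 2 (Ctrb1 and Cpa1). Cela2a was well above background only on the 4 mutants, so it passed the filter through the group where it is high. Its separation and p-value therefore test nothing. There were 0 past an adjusted p of 0.05 in limma (lowest adjusted p = 0.114, that of Cela2a). At an unadjusted p under 0.05 there were 4, Cela2a among them (5.34% of all genes). Their sum was 0.74 to 1.96 in controls and 2.51 to 13.2 in mutants. Amylase (Amy2a5) was at -6.64 to -1.88 in controls, where 1 array was not well above background, and at 0.16 to 3.29 in mutants. Among the 4 mutants, replicate 4 was highest for Amy2a5 and lowest for Fabp6 and Fgf15. Nothing is read from an order of 4 arrays. Cela2a was well above background on 0 controls and stood at -5.11 to -2.12 in mutants, Prss2 was well above background on 0 controls and 3 mutants, and Pnlip on 1 of each. Hepatocyte markers (7 of 8 tested, Serpina1b unmatched) summed to 161.4 to 225.3 in controls and 150.6 to 188.3 in mutants. By sign 4 of the 7 were higher and 3 lower, with a median difference of 0.05. Alb and Ahsg were dim, well above background on 7 and 6 of the 8 arrays. Afp, which encodes α-fetoprotein, was the 1 hepatocyte marker with groups that did not overlap (4.67% of all genes). It was at 6.77 to 7.16 in controls and 6.21 to 6.72 in mutants, a difference of -0.52 (SE 0.15, limma adjusted p = 0.709). Leukocyte markers (6 of 6) summed to 53.7 to 69.2 in controls and 52.3 to 80.1 in mutants. The part of these cell types in the Fabp6 and Fgf15 differences was not tested.

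**Figure D4:**
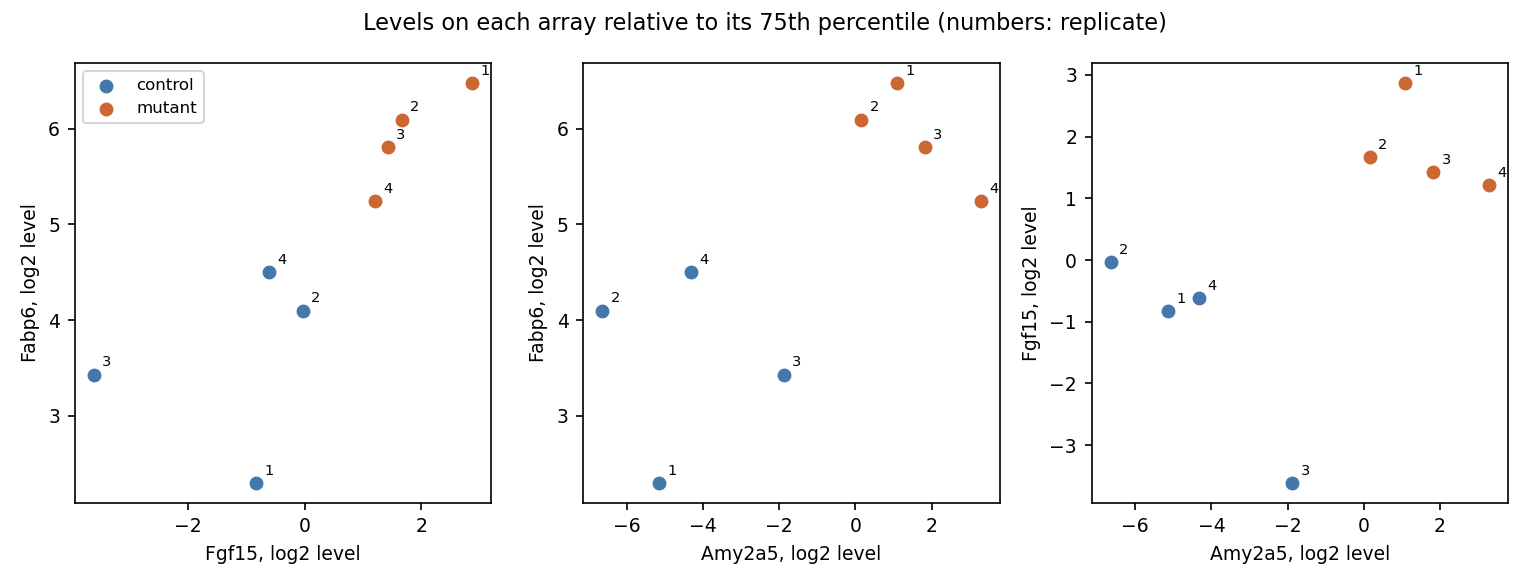
Log2 levels on each array relative to its 75th percentile: Fabp6 against Fgf15 (left), and Fabp6 and Fgf15 against the acinar gene Amy2a5 (middle and right), with controls in blue, mutants in orange and replicate numbers beside the points. The groups separate on every axis, and among mutants the array highest for Amy2a5 (3.29) is the lowest for Fabp6 (5.25) and Fgf15 (1.21).

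Likeness of pattern was ranked by Pearson's r of log2 levels over the 8 arrays among 15323 other genes with plain symbols, as a description. The genes most like Fabp6 were Plaur (r = 0.977), Atp6v0a4 (0.968) and Bmp3 (0.968), whose group differences were 0.26, 0.93 and 0.34. Over the 7 arrays without mutant replicate 1, Plaur was again among the 3 nearest (0.970), with Rnf212 (0.982) and Zcchc14 (0.972). The genes most like Fgf15 were Adamts14 (0.983), Cobl (0.977) and Lrrn4cl (0.976), and without mutant replicate 1 they were Pvr (0.979), Adamts14 (0.977) and Cobl (0.973). For Slc10a2 they were Runx1t1 (0.997), Zwilch (0.995) and Lrch2 (0.992), and without that array Runx1t1 (0.987), Pop4 (0.980) and Eid1 (0.978). Pop4 and Eid1 had r of -0.11 and -0.13 over all 8 arrays, so the Slc10a2 ranking differed with and without mutant replicate 1. None of the 6 members was among these neighbours, since members were left out.

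**Figure D5:**
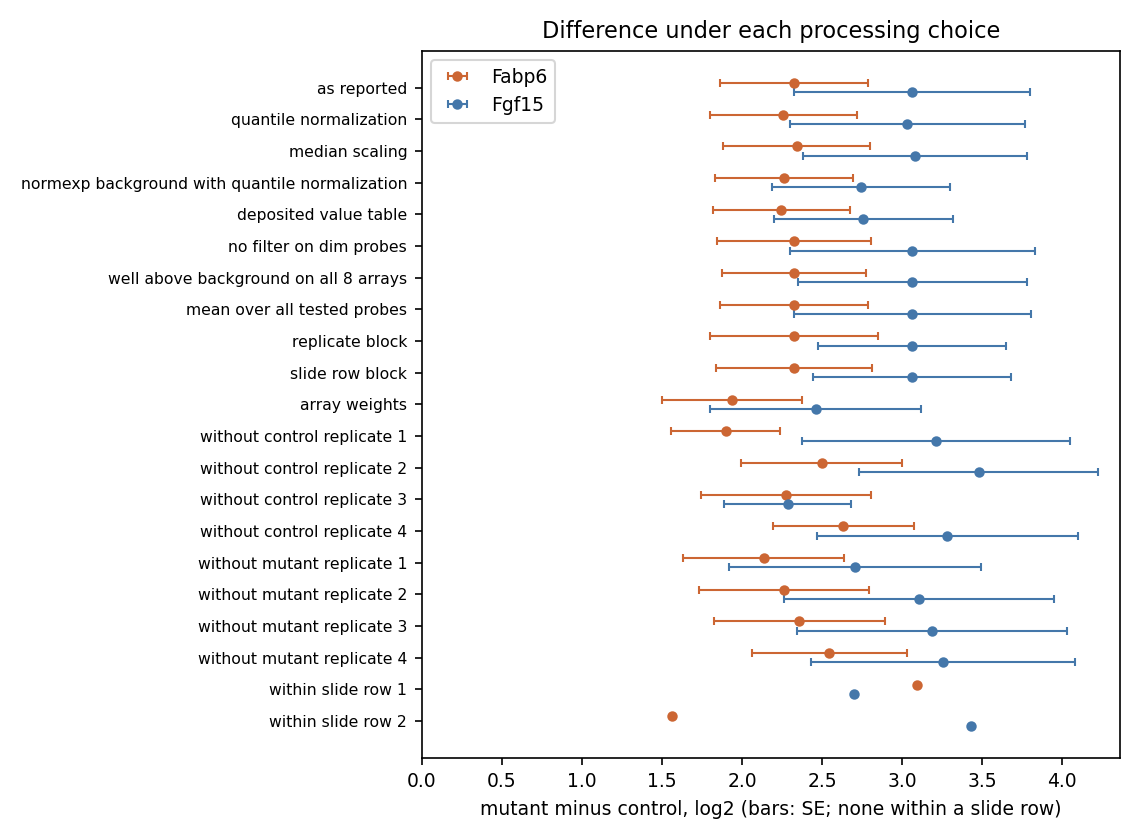
Mutant minus control difference (log2) of Fabp6 and Fgf15 as reported and under each of 20 other processing choices, with limma SE; the within-row values have no SE. Values run from 1.56 to 3.09 for Fabp6 and from 2.28 to 3.48 for Fgf15. All are above 0, which was fixed for choices that kept the same levels.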

How the data were processed

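TRI-reagent was used to isolate the RNA, of which 100 ng was amplified and labelled with cyanine 3, per the labels' protocols. The authors deposited linear spot intensity values from Agilent Feature Extraction 10.10.1.1 (submitters' processing notes); per the file headers, spatial and multiplicative detrending were on within each array, and probe positions are on mm9. The series table holds deposited intensity values whose 8 columns share a median of 123.3; its normalization is not stated, each column's rank correlation with that array's median signal was 0.99997 to 0.99998, and it served as an alternative. Flags for well above background were used as a yes or no.

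Values were scaled to each array's 75th percentile. Control and outlier spots were left out (117 to 157 outliers an array); the count of saturated non-control spots was 0. A probe was tested when well above background on at least 4 of 8 arrays, and the brightest probe stood for a gene. Names came from RefSeq accessions (26576 probes), then from older symbols (492). The comparison used lmFit and eBayes of limma 3.58.1 (R 4.3.3), two-sided, adjusted by Benjamini-Hochberg across every gene tested. It was tested on simulated data. Genes were named by rule: the 6 members, the pathway lists, Fabp1, Rfx6, called markers and the 3 nearest patterns. Single acinar genes, Afp and Chga were named after their values were seen. The value of 1 gene of the pathway lists is not reported here, though the list counts include it. The members and lists were chosen with earlier results of these data known. All arrays lay on 1 slide, so slide could form no batch; the slide row was a block in an alternative. The number of arrays limits the precision.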

Additional observations from a re-analysis of the deposited data

Results flagged for a closer look

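In 76 groups of 4 arrays (38 named genes), 6 groups had 1 array set apart from the other 3 beyond Dixon's critical value, against 3.8 by chance at 1 in 20. Control replicate 3 was low for Slc10a2 (-4.15, others -3.43 to -3.41), high for Nr1h4 (4.73, others 4.52 to 4.54) and low for Cyp7b1 (-0.27, others -0.005 to 0.02). Mutant replicate 1 was high for Nr1h3 (3.03, others 2.59 to 2.64) and Cck (2.16, others 1.80 to 1.83) and low for Rfx6 (-5.52, others -3.37 to -3.02). The low Fgf15 value of control replicate 3 and the low Slc10a2 value of mutant replicate 1 did not pass that criterion.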

How the results depend on the processing

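Over 20 alternatives each, the Fabp6 difference was 1.56 to 3.09 and the Fgf15 difference 2.28 to 3.48. The positive sign was fixed wherever an alternative kept the same levels, because every mutant lay above every control. Leaving out 1 array gave 1.90 to 2.63 for Fabp6 and 2.28 to 3.48 for Fgf15. Under array weights (0.114 for mutant replicate 1) they were 1.94 and 2.46. The Slc10a2 difference was positive in 3 of 20 (0.19 without mutant replicate 1), Nr0b2 and Gpbar1 were negative in 3 of 20 each, and Nr1h4 was positive in 1. In the 18 alternatives with a test, limma called 0 members and 0 of the 22 pathway genes in each (0.0592% of all genes as reported). The groups of 2 members did not overlap in any of the 18. Of all genes, 4.67% did not overlap as reported, and 2028 of 25330 without mutant replicate 1. Nothing is read from the count of members. Most of these alternatives kept the same levels and could not have made the groups overlap. Only other scaling, other background correction or the deposited values could have done so. Counts of members were added after seeing the data. Over all genes, 15 were called, 10 to 22 when 1 array was left out and 37 with array weights. With the replicate number as a block, 7 were called, all among the 15, and no member call changed; deviations of same-numbered arrays correlated at -0.09 to 0.09, and 1 of 8 arrays correlated best with its own number, so the numbers were not taken as pairs. Slc10a2, at an intensity of 17.8 on mutant replicate 1, is the member most limited by signal over background.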
